A study of Mus musculus with 16 samples.

Results

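The TAM receptors Axl, Mertk and Tyro3 and their ligands Gas6 and Pros1 were followed in the corpus callosum of mice fed cuprizone (CPZ). All probes of the 5 genes were taken, found through the transcript accession of each probe, which gave 8 of the 41153 probes of the array and 5 of the 18737 genes with a name. Axl, Mertk and Gas6 had 1 probe each (A_52_P311787, A_51_P366138 and A_51_P172054), Pros1 had 2 and Tyro3 had 3. The rule for the members is the receptor and ligand family and uses no measured value.

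RNA of the affected corpus callosum, the large white matter tract between the hemispheres, was measured on 16 single-colour Agilent arrays of male C57BL/6 mice. By the methods, mice aged 7 to 8 weeks were included, and the controls were matched in age and sex to the 4 weeks group. Against these controls, the 2 weeks and regular diet mice may also differ in age, which was not tested. The groups were 3 arrays of untreated controls on normal chow, 3 of mice on CPZ chow for 2 weeks, 4 with 4 weeks on it, and 6 returned to regular diet once 4 weeks on CPZ were over. CPZ is a copper chelator that kills oligodendrocytes, and it was mixed into powdered chow at 0.2 to 0.4% by the labels and at 0.2% by the methods. By the methods, the regular diet lasted 2 days or 14 days. The paper gives equal group sizes for both times. The labels do not say which arrays belong to which time, so the 6 arrays were kept as 1 mixed group. The methods give 3 to 6 mice for each condition, which fits 1 mouse per array, but the labels do not tie arrays to animals.

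TAM receptors are receptor tyrosine kinases that bind Gas6 or protein S, the product of Pros1, and through these bridging proteins recognise phosphatidylserine on dying cells and on shed membrane. Axl and Mertk are known from macrophages and microglia, where they serve the uptake of apoptotic cells and dampen cytokine and interferon signalling. Tyro3 is known in brain mainly from neurons and from myelinating oligodendrocytes, and Gas6 from neurons, endothelium and glia.

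The promoters of Axl, Pros1 and Tyro3 are printed because the values of Axl and Pros1 were close over the arrays and those of Tyro3 ran the other way. Sequences are from RefSeq (mouse GRCm38.p6), from 250 bases before to 50 bases after the gene start, 5′ to 3′ on the strand of the gene. Capitals mark the GC box (GGGCGG or its reverse complement CCGCCC). They cover chr7:25788684-25788983 on the minus strand for Axl, chr16:62854057-62854356 on the plus strand for Pros1 and chr2:119799264-119799563 on the plus strand for Tyro3.
Axl: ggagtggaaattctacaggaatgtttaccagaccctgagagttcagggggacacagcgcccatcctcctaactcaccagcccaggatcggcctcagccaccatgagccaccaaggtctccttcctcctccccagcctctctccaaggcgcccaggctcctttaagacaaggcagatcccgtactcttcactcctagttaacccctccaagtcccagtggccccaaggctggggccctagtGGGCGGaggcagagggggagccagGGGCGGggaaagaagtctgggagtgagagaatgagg
Pros1: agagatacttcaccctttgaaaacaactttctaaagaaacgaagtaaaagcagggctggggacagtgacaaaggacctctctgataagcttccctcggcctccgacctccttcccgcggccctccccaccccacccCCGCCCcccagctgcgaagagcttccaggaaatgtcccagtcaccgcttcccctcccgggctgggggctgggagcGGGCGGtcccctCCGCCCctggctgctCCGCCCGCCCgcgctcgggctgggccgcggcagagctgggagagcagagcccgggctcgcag
Tyro3: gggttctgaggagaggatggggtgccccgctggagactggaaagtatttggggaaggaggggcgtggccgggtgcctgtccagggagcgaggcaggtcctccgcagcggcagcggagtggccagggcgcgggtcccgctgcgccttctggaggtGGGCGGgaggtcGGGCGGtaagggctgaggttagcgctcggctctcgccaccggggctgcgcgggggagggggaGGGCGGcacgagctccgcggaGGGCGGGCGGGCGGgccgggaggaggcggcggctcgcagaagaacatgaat
Each of the 5 genes matched a promoter in this table and held the GC box, with 2 matches for Axl, 4 for Mertk, 6 for Tyro3, 4 for Gas6 and 5 for Pros1 over both strands, some of which overlap one another. Of all 32851 promoters, 35.7% hold it. The Tyro3 window was 73.3% G and C and the Axl window 60.3%, against a median of 52.7% over all promoters. The core of the PU.1 site, GAGGAA, was matched in Axl only (28.3% of all promoters), and a STAT site, TTCNNNGAA, in Pros1 only (8.3%). No match was found in the 5 windows to the interferon-stimulated response element (3.44%), the AP-1 site TGANTCA (7.81%) or the E-box CACGTG (7.15%). A match describes the letters of a window and not the use of a site.

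All 8 probes were well above background on all 16 arrays, and none was saturated or marked as an outlier spot. Values below are the deposited log2 signals, scaled to the 75th percentile of the array and set to 0 at the median of the 3 untreated arrays for each probe, so a value of 1 is a 2-fold higher signal. A gene with several probes is represented by its brightest probe. Between 57.4 and 72.2% of probes were well above background on each array. Regular diet arrays 1 and 2 stood apart from the other 4 regular diet arrays in much of what follows. The members' regular diet differences from fits without a slide block are given with and without them. This split of 2 and 4 arrays does not match equal group sizes and is not to be read as a split by time. Array 3 lay with arrays 1 and 2 in Tyro3 and in the summed oligodendrocyte markers, and with arrays 4 to 6 in Axl. Arrays 1 and 2 held the 2 highest of the 16 values of Axl, Mertk, Gas6 and Pros1, 4 of the 5 members, a pattern found for 9.62% of genes. The scanner file recorded for a sample and its column in the processed table came from different arrays for 14 of 16 samples, and the columns of the processed table were followed here. The directions rest on this choice. With the columns of the processed table, all 9 oligodendrocyte markers were lower than untreated at 2 and 4 weeks (medians -3.30 and -2.75) and limma called 43 genes at 2 weeks, 37 at 4 weeks and 178 on regular diet. These counts rest on single arrays. Leaving out 1 array at a time gave 1 to 60 calls at 2 weeks (1 without untreated array 1) and 0 to 115 at 4 weeks (0 without 2 weeks array 3 or without 4 weeks array 1, 3 or 4). On regular diet it gave 4 to 196 (4 without untreated array 3). The methods' test, run here with both regular diet times pooled, called 0, 0 and 8. With the scanner files under their recorded samples, the same markers were all higher at 2 and 4 weeks (1.22 and 0.54) and limma called 0 genes in each of the 5 comparisons (230, 600 and 1981 at an unadjusted p under 0.05 at 2 weeks, 4 weeks and on regular diet against untreated). In those files Axl was still higher than untreated at 2 weeks, at 4 weeks and on regular diet (0.51, 0.35 and 0.45), but Tyro3 was higher at 2 and 4 weeks (0.46 and 0.29) and Pros1 was not (-0.01 and -0.34).

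Of the 5 genes, 4 had higher mean signals after 4 weeks of CPZ and on regular diet than in untreated controls, and Tyro3 had a lower one. None of these differences passed the test. A gene was called when its Benjamini-Hochberg adjusted p in limma, over all probes tested, was under 0.05 and the change at least 2-fold. By this rule 0 of 5 members were called at 2 weeks of CPZ against untreated, where 0.211% of 20399 genes or transcripts were called. At 4 weeks 0 of 5 were called against 0.181% of genes, and on regular diet 0 of 5 against 0.864% of 20603. Between 4 and 2 weeks of CPZ 0 of 5 were called against 0.0147%, and between regular diet and 4 weeks of CPZ 0 of 5 against 0.00485%. At an unadjusted p under 0.05 in limma the members counted 3 at 2 weeks (Axl, Mertk, Tyro3; 1948 of all genes), 5 at 4 weeks (2040 of all genes) and 4 on regular diet (all but Gas6; 2164 of all genes). Gas6 alone was under it between 4 and 2 weeks (2296 of all genes), and no member between regular diet and 4 weeks (5488 of all genes). The median difference of the 5 members was 0.81 at 2 weeks, 0.65 at 4 weeks and 1.09 on regular diet, against 0.05, -0.04 and -0.01 over all genes. The last median was 0.45 without regular diet arrays 1 and 2. The type of test named in the methods, an analysis of variance with Tukey's post hoc test, called 0 of 5 in each comparison. It was run here on the 3 untreated and CPZ groups, or on 4 groups with both regular diet times pooled. The paper reports these times apart and lists Axl as up in early remyelination, so its own test was not repeated. The 3 comparisons against untreated share the same 3 control arrays.

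**Figure D1:**
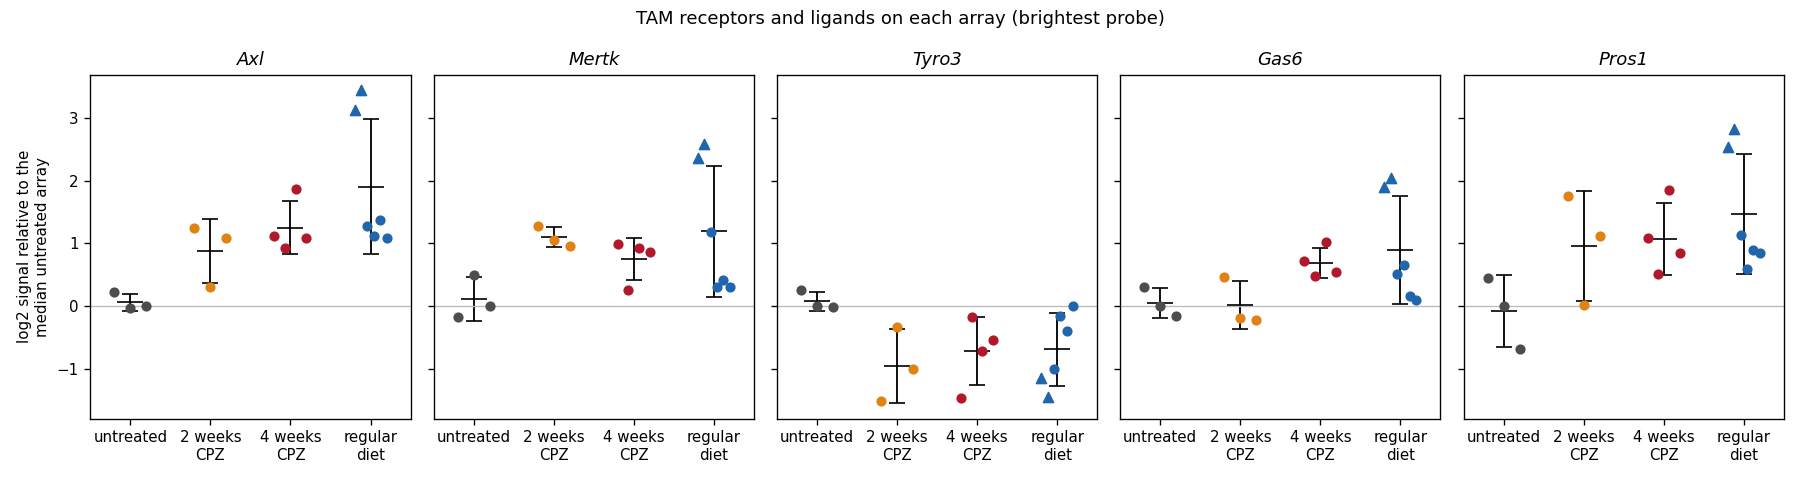
Log2 signal relative to the median untreated array (vertical axis) for the brightest probe of each gene, by group (horizontal axis). Points are arrays, triangles are regular diet arrays 1 and 2, and black bars are the mean with the SD of each group. All 13 Axl points after CPZ lie above the untreated points, while 12 of 13 Tyro3 points lie below them.

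Axl is the TAM receptor that inflamed macrophages display. The Axl values were 0.22, -0.03 and 0.00 in the untreated arrays, and 1.25, 0.30 and 1.08 after 2 weeks of CPZ. The values at 4 weeks were 1.12, 0.92, 1.87 and 1.08. On regular diet they ran from 1.09 to 3.44 with a median of 1.32. All 13 arrays after CPZ lay above every untreated array for Axl, which held in that direction for 1.72% of genes, and the lowest was 2 weeks array 2. Regular diet arrays 1 and 2 were the highest for Axl, at 3.13 and 3.44, and the other 4 lay between 1.09 and 1.37, inside the range of the 4 weeks arrays.

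The difference of Axl from untreated was 0.81 ± 0.32 (SE, n = 3 against 3) on the log2 scale at 2 weeks (limma adjusted p = 0.417). At 4 weeks it was 1.18 ± 0.29 (n = 4 against 3; limma adjusted p = 0.145), a 2.27-fold higher signal, and on regular diet 1.84 ± 0.50 (n = 6 against 3; limma adjusted p = 0.133). Without regular diet arrays 1 and 2 the last value was 1.15 ± 0.26 (limma adjusted p = 0.0753). The groups did not overlap in any of the 3 comparisons against untreated, as for 8.2%, 5.31% and 5.08% of all genes in the same direction. The 4 weeks and 2 weeks arrays overlapped (0.37 ± 0.29), as did the regular diet and 4 weeks arrays (0.66 ± 0.46). The latter difference was -0.03 without regular diet arrays 1 and 2. Leaving out 1 array moved the difference between 4 and 2 weeks from 0.08 to 0.55.

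Whether Axl was called at 4 weeks changed when the slide was part of the model. The 16 arrays lay on 4 slides of 4, and each slide held several groups. With the slide as a fixed block the Axl difference at 4 weeks was 1.54 (limma adjusted p = 0.0336) and as a random block 1.33 (limma adjusted p = 0.0446), so both fits called it. The fixed block called 394 genes in all in this comparison and the random block 325, against 37 without a block. Within the 2 slides that held both groups it was 1.90 and 1.12. At 2 weeks the value with the slide as a fixed block was 0.90 and within slide 1 it was 0.95, and neither block gave a call. On regular diet it was 1.92 with the fixed block and 0.89, 2.29 and 2.25 within the 3 slides that held both groups, again without a call. Regular diet arrays 1 and 2 lay on the last 2 of these slides, and without them the within-slide values were 0.89, 1.12 and 1.37. The fixed block then gave 1.25 (limma adjusted p = 0.0447), a call beside 258 over all genes.

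Mertk, the receptor that serves the uptake of apoptotic cells and myelin debris, was separated from the untreated arrays at 2 weeks and overlapped them in the other groups. The untreated values of Mertk were -0.17, 0.50 and 0.00, and those after 2 weeks of CPZ were 1.27, 1.06 and 0.96, all higher, as for 8.2% of genes. After 4 weeks they were 0.99, 0.26, 0.92 and 0.86, where array 2 lay below untreated array 2. On regular diet Mertk ran from 0.31 to 2.58 with a median of 0.80. Arrays 1 and 2 had 2.37 and 2.58, array 3 had 1.18, and the other 3 lay between 0.31 and 0.42, among the untreated values. In all, 9 of 13 arrays after CPZ were above every untreated array for Mertk.

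The difference of Mertk from untreated was 0.99 ± 0.26 at 2 weeks (limma adjusted p = 0.161), 0.65 ± 0.24 at 4 weeks (limma adjusted p = 0.37) and 1.09 ± 0.47 on regular diet (limma adjusted p = 0.434). Without regular diet arrays 1 and 2 the last was 0.45 ± 0.26. With the slide as a fixed block the 3 values were 1.25, 0.73 and 1.04, and none was called. The 4 weeks value was -0.34 ± 0.24 relative to 2 weeks, with overlapping groups. Regular diet against 4 weeks gave 0.43 ± 0.43, and -0.21 without regular diet arrays 1 and 2.

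Tyro3, the TAM receptor of neurons and myelinating glia, had lower mean signals than untreated in all 3 comparisons. Its brightest probe, A_52_P581056, gave 0.25, 0.00 and -0.02 in untreated arrays and -1.52, -0.34 and -1.0 after 2 weeks of CPZ. After 4 weeks the Tyro3 values were -1.46, -0.17, -0.72 and -0.54. On regular diet they ran from -1.45 to 0.00 with a median of -0.70. Every 2 weeks and 4 weeks array was below every untreated array for Tyro3, as for 8.6% of genes at 2 weeks and 4.41% at 4 weeks. On regular diet arrays 1, 2 and 3 were low, at -1.14, -1.45 and -1.01, and arrays 4, 5 and 6 lay at -0.39 and above, so that this group overlapped the controls at 1 array.

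The difference of Tyro3 from untreated was -1.03 ± 0.37 at 2 weeks (limma adjusted p = 0.361), -0.80 ± 0.35 at 4 weeks (limma adjusted p = 0.482) and -0.77 ± 0.36 on regular diet (limma adjusted p = 0.468). With the slide as a fixed block these were -1.34, -1.19 and -0.81, and none was called. Without regular diet arrays 1 and 2 the last was -0.47 ± 0.34. Relative to 2 weeks the 4 weeks value was 0.23 ± 0.35, and regular diet against 4 weeks gave 0.03 ± 0.32, both with overlapping groups. The latter was 0.33 ± 0.32 without regular diet arrays 1 and 2.

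The other Tyro3 probes gave differences of the same sign. Probe A_51_P456266 differed by -1.14 ± 0.45, -0.94 ± 0.42 and -0.84 ± 0.41 at 2 weeks, 4 weeks and on regular diet, and all 13 arrays after CPZ were below every untreated array (0.175% of genes in that direction). It followed the brightest Tyro3 probe closely over the 16 arrays (r = 0.99). The third probe, A_52_P411629, differed by -1.0 ± 0.34, -0.58 ± 0.32 and -1.01 ± 0.29, with a limma adjusted p of 0.155 for regular diet. The regular diet values of these probes were -0.51 ± 0.40 and -0.97 ± 0.33 without arrays 1 and 2. This probe correlated less with the others (r = 0.58 and 0.47), and unlike them it was lower on regular diet than at 4 weeks (-0.43 ± 0.26, and -0.39 ± 0.30 without arrays 1 and 2), and its regular diet values, -1.73 to -0.70, were all below the untreated values, as for 3.41% of genes in this comparison.

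**Figure D2:**
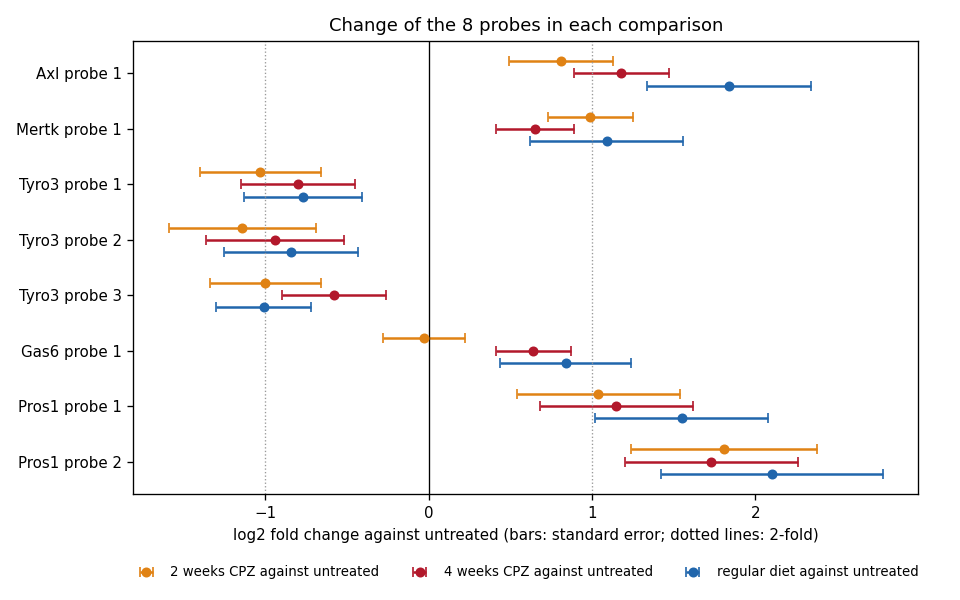
Log2 fold change against untreated (horizontal axis) with its standard error for each of the 8 probes, at 2 weeks of CPZ, 4 weeks of CPZ and on regular diet. Dotted lines mark a 2-fold change. The 3 Tyro3 probes lie below 0 in each comparison and the probes of Axl, Mertk and Pros1 above it, while Gas6 lies near 0 (-0.03) at 2 weeks.

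Gas6 encodes the ligand of all 3 receptors. Its untreated values were 0.31, 0.00 and -0.16, and those after 2 weeks of CPZ were 0.46, -0.19 and -0.22, of which 1 lay above and 2 below all untreated values. After 4 weeks of CPZ they were 0.72, 0.48, 1.02 and 0.54, above every untreated array, as for 5.31% of genes, and above every 2 weeks array. On regular diet Gas6 ran from 0.09 to 2.04 with a median of 0.59. The 2 highest were again arrays 1 and 2, at 1.90 and 2.04, and the other 4 reached 0.66.

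The difference of Gas6 from untreated was -0.03 ± 0.25 at 2 weeks (limma adjusted p = 0.982), 0.64 ± 0.23 at 4 weeks (limma adjusted p = 0.366) and 0.84 ± 0.40 on regular diet (limma adjusted p = 0.475). With the slide as a fixed block these were -0.02, 0.84 and 0.90. Without regular diet arrays 1 and 2 the last was 0.31 ± 0.22. From 2 to 4 weeks of CPZ the difference of Gas6 was 0.67 ± 0.23 (limma adjusted p = 0.433), where groups that did not overlap were found for 5.79% of genes in that direction. Regular diet against 4 weeks gave 0.20 ± 0.36, and -0.33 without regular diet arrays 1 and 2.

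Pros1 encodes protein S, an anticoagulant of plasma and the ligand of Tyro3 and Mertk. Its brightest probe, A_51_P393426, gave 0.45, 0.00 and -0.68 in untreated arrays, the widest untreated range of the 5 representative probes. The Pros1 values after 2 weeks of CPZ were 1.75, 0.02 and 1.11, and after 4 weeks 1.08, 0.51, 1.85 and 0.84. On regular diet they ran from 0.59 to 2.83 with a median of 1.01. All arrays after CPZ but 2 weeks array 2 lay above the untreated arrays for Pros1, where no overlap in this direction was found for 5.31% of genes at 4 weeks and 5.08% on regular diet, and regular diet arrays 1 and 2 were the highest at 2.53 and 2.83.

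The difference of Pros1 from untreated was 1.04 ± 0.50 at 2 weeks (limma adjusted p = 0.605), 1.15 ± 0.47 at 4 weeks (limma adjusted p = 0.427) and 1.55 ± 0.53 on regular diet (limma adjusted p = 0.287). Without regular diet arrays 1 and 2 the last was 0.94 ± 0.41. Leaving out 1 array moved the 2 weeks value of Pros1 between 0.64 and 1.51. With the slide as a fixed block Pros1 was called at 4 weeks, at 1.76 (limma adjusted p = 0.0293), among 394 genes in all. With the slide as a random block Pros1 was not called (1.39, limma adjusted p = 0.144). Within the 2 slides that held both groups its difference was 1.85 and 1.76. On regular diet the value was 1.68 with the fixed block and 0.14, 1.84 and 2.39 within the 3 slides, without a call. Without arrays 1 and 2 these were 1.09 and 0.14, 0.84 and 1.57. Relative to 2 weeks the 4 weeks value was 0.11 ± 0.47, and regular diet against 4 weeks gave 0.40 ± 0.48, and -0.21 ± 0.38 without regular diet arrays 1 and 2.

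The other Pros1 probe, A_52_P909274, followed the first (r = 0.97 over 16 arrays) with larger differences. It gave 1.81 ± 0.57 at 2 weeks, 1.73 ± 0.53 at 4 weeks and 2.10 ± 0.68 on regular diet, with limma adjusted p of 0.258, 0.247 and 0.247, and the regular diet value was 1.26 ± 0.48 without arrays 1 and 2. Its untreated values were 0.24, 0.00 and -0.91, and all 13 arrays after CPZ lay above them, as for 1.72% of genes.

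Whether members changed unequally was tested on their difference within each array, which compares changes and not levels. The 4 pairs in 3 comparisons gave 12 two-sided exact permutation tests over arrays, and none was under 0.05 after Benjamini-Hochberg adjustment. Axl minus Tyro3 was -0.01 ± 0.03 (SD, n = 3) in untreated arrays, 1.83 ± 1.08 (n = 3) at 2 weeks, 1.97 ± 0.75 (n = 4) at 4 weeks and 2.60 ± 1.61 (n = 6) on regular diet. No group overlapped the untreated arrays in this difference, for which no share over other pairs of genes was computed, and its change was 1.84, 1.98 and 2.61 with exact p of 0.1, 0.0571 and 0.0476 (adjusted p = 0.128 for each, permutation test). The smallest p that these group sizes allow in an exact test is 0.1, 0.0286 and 0.0119. Without regular diet arrays 1 and 2 the change on regular diet was 1.61, with an exact p of 0.0286 (adjusted p = 0.15, permutation test).

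Mertk minus Tyro3 changed by 2.01, 1.45 and 1.85 in the same order (exact p = 0.1, 0.0857 and 0.107), and only the 2 weeks arrays did not overlap the untreated ones. The change on regular diet was 0.91 for this pair, 0.70 for Axl minus Mertk and -0.64 for Gas6 minus Pros1 when regular diet arrays 1 and 2 were left out. Axl minus Mertk changed by -0.17 at 2 weeks, 0.53 at 4 weeks and 0.75 on regular diet (exact p = 0.6, 0.2 and 0.0238; adjusted p = 0.6, 0.218 and 0.128, permutation test). Of the ligands, Gas6 minus Pros1 changed by -1.07, -0.51 and -0.70 (exact p = 0.1, 0.0857 and 0.0357; adjusted p = 0.128 for each, permutation test), with no overlap at 2 weeks.

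**Figure D3:**
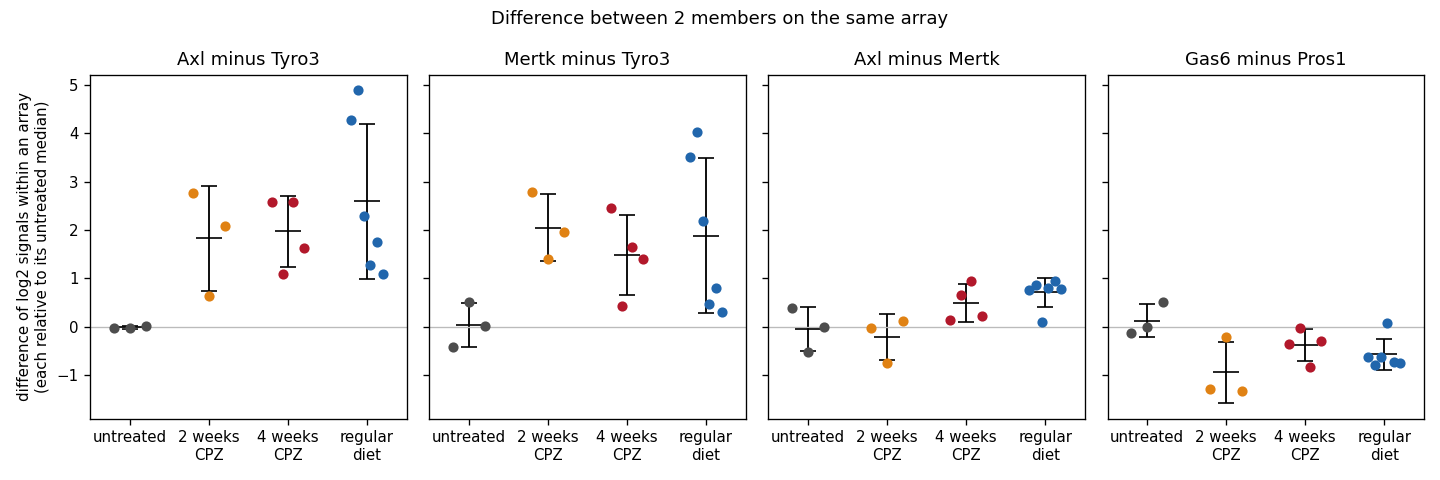
Difference between the log2 signals of 2 members on the same array (vertical axis), each relative to its untreated median, by group (horizontal axis). Points are arrays and black bars the mean with the SD. Axl minus Tyro3 lies near 0 in the 3 untreated arrays (-0.01 ± 0.03) and above them in every other array.

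Over the 16 arrays, which differ in group and share slides, the representative probes of Axl and Pros1 correlated at r = 0.94, Axl and Gas6 at 0.90, Axl and Mertk at 0.85, and Mertk and Tyro3 at -0.81. Over the 14 arrays without regular diet arrays 1 and 2 these were 0.89, 0.66, 0.49 and -0.85. Mertk and Gas6 went from 0.77 to 0.22. These values describe the arrays and carry no test.

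The genes with the pattern most like each member were taken by r over the 16 arrays among 12617 named genes. For Axl they were Itgb2, an integrin chain of leukocytes (r = 0.991), Parvg (0.990) and C1qa, a complement component made by microglia (0.989), and these were 0.975, 0.971 and 0.976 over the 14 arrays. For Mertk they were Myo1c (0.950), Cracr2b (0.948) and Stab1, a scavenger receptor that also binds phosphatidylserine (0.941), and these were 0.889, 0.845 and 0.798 over the 14 arrays. For Tyro3 they were Adap1 (0.955), Stmn1 (0.953) and Epb41l3 (0.947), at 0.952, 0.942 and 0.939 over the 14 arrays. Gas6 was most like Plbd2 (0.979), Zfp991 (0.977) and Dab2, an endocytic adaptor (0.963), with 0.930, 0.938 and 0.867 over the 14 arrays. Pros1 was most like Erap1 (0.984), Itpripl2 (0.978) and Anxa4 (0.978), with 0.966, 0.977 and 0.954 over the 14 arrays.

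The summed signal of microglia markers was high on arrays in which Axl was high, though not for each marker. Fewer cells of a type and less RNA per cell cannot be told apart in this bulk tissue. The summed signal of 10 microglia markers, in units of the 75th percentile of the array, was 21.9 to 45.0 in untreated arrays, 27.0 to 62.4 at 2 weeks and 49.2 to 102 at 4 weeks. It was 382 and 472 in regular diet arrays 1 and 2 and 54.0 to 71.3 in the other 4. At 2 weeks 4 of the 10 had lower means than untreated (P2ry12, Itgam, Siglech and Tmem119, at -0.60, -0.47, -0.42 and -0.24). On regular diet these 4 were higher, but without arrays 1 and 2 they were -0.09, -0.11, -0.04 and -0.35. All 10 markers were well above background on every array, and only Fcrls was called (4 weeks, 2.24 ± 0.31, limma adjusted p = 0.0454, and on regular diet without arrays 1 and 2, 1.72 ± 0.32, limma adjusted p = 0.0374; at 4 weeks the call held in 2 of 10 fits that left out 1 array).

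Of the 8 markers of activated microglia and macrophages, 6 were on the array by name. Their summed signal was 0.83 to 1.71 in untreated arrays, 5.00 to 15.8 at 2 weeks and 6.92 to 38.3 at 4 weeks. It was 151 and 190 in regular diet arrays 1 and 2, and 8.58 to 23.1 in the others. Itgax rose by 4.94 ± 0.60 and 5.80 ± 0.56 at 2 and 4 weeks and by 6.59 ± 0.56 on regular diet (limma adjusted p = 0.0304, 0.0174 and 0.000262). Cst7, an inhibitor of lysosomal cathepsins, did not rise well above background in untreated arrays and was at least 31.6-fold, 87.2-fold and 181-fold higher in the same comparisons (limma adjusted p = 0.0389, 0.0174 and 0.00665), where each bound sets the mean of the high group against the lowest signal above background. Itgax was well above background in 2 of 3 untreated arrays. On regular diet Lgals3, Spp1 and Gpnmb were also called. The same 5 genes were called on regular diet without arrays 1 and 2, with Itgax at 6.06 ± 0.52 and Cst7 at least 61.6-fold higher. Without untreated array 3, Itgax alone of the 5 was called on regular diet, and it was also the 1 called by the methods' test. At 2 and 4 weeks the calls of Itgax and Cst7 held in 4 of 10 fits that left out 1 array, and the methods' test called neither. The median difference of the 6 markers from untreated was 3.39, 4.84 and 5.91 at 2 weeks, 4 weeks and on regular diet. With the scanner files under their recorded samples it was 1.69, 0.32 and 1.89, and 0 of 6 were called. Of 6 markers of perivascular and infiltrating macrophages 5 were tested, with sums of 0.16 to 0.41 in untreated arrays, 0.29 to 1.73 at 2 weeks, 0.36 to 0.44 at 4 weeks and 0.58 to 1.53 on regular diet, and Ms4a7 alone was called (regular diet, 3.75 ± 0.49, limma adjusted p = 0.00491, and 3.34 ± 0.46 without arrays 1 and 2, but not called without untreated array 3). Lyve1 was well above background in all 3 of the 2 weeks arrays and in no other group.

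Oligodendrocyte markers were low on many of the arrays in which Tyro3 was low. The summed signal of 9 such markers was 617 to 1320 in untreated arrays, 32.2 to 270 at 2 weeks and 43.6 to 373 at 4 weeks. On regular diet it was 97.6, 102 and 162 in arrays 1 to 3, the same 3 arrays in which Tyro3 was low, and 860 to 1245 in arrays 4 to 6. All 9 had lower means than untreated in each comparison, and 0 of 9 were called by limma. The largest measured differences were those of Opalin at 2 weeks (-5.05 ± 1.31, limma adjusted p = 0.16, well above background in 2 of 3 arrays at 2 weeks) and Mal at 4 weeks (-3.50 ± 0.71, limma adjusted p = 0.0918). Neuron markers, the other known source of Tyro3, summed to 185 to 268 in untreated arrays, 101 to 312 at 2 weeks, 174 to 343 at 4 weeks and 108 to 239 on regular diet, over overlapping ranges. All 9 neuron markers had lower means than untreated at 2 weeks (median -0.36) and on regular diet (median -0.44, and -0.30 without arrays 1 and 2), and 3 of 9 at 4 weeks (median 0.12), and 0 were called.

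As a description over 16 arrays that differ in group, Axl correlated with the log2 sum of the microglia markers at r = 0.98 and of the activated markers at 0.93 (0.92 and 0.91 without regular diet arrays 1 and 2). For Pros1 these were 0.94 and 0.89 (0.89 and 0.78), for Gas6 0.93 and 0.83 (0.73 and 0.66) and for Mertk 0.82 and 0.80 (0.39 and 0.60). Tyro3 correlated with these 2 sums at -0.65 and -0.75 (-0.57 and -0.68) and with the oligodendrocyte sum at 0.69 (0.65). Mertk correlated with the oligodendrocyte sum at -0.67 (-0.74), and with the neuron sum Tyro3 correlated at 0.24 (0.08). The part of cell composition in the values of the members was not tested.

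**Figure D4:**
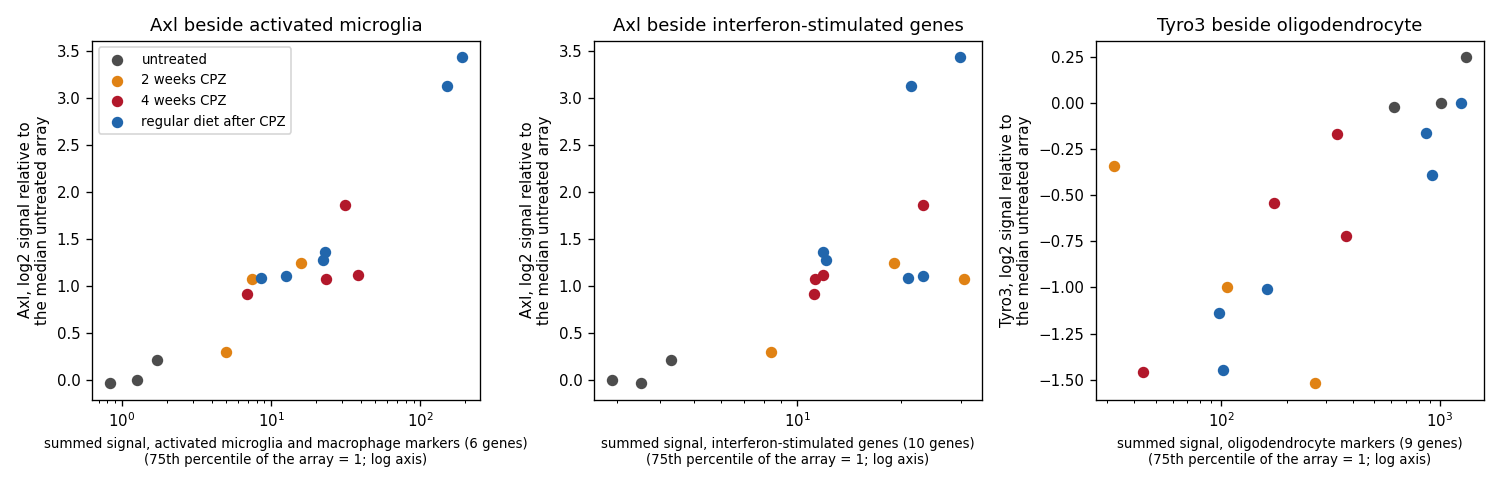
Log2 signal of Axl or Tyro3 relative to the median untreated array (vertical axes) against the summed signal of a marker list on the same array (horizontal axes, log scale, 75th percentile of the array = 1). Points are arrays, coloured by group. The middle panel sets Axl against the interferon-stimulated genes described next. Axl is lowest in the 3 untreated arrays, whose activated microglia sums are 0.83 to 1.71, and highest in regular diet arrays 1 and 2 at 151 and 190, while Tyro3 is high where the oligodendrocyte sum is high, with 2 weeks arrays 1 and 2 away from this pattern at sums of 270 and 32.2.

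The interferon-stimulated genes were read beside Axl because TAM signalling is known as a brake on interferon responses. All 10 had higher means than untreated in each comparison, with medians of 2.82 at 2 weeks, 2.42 at 4 weeks and 2.64 on regular diet against 0.05, -0.04 and -0.01 over all genes. Cxcl10, a chemokine, was the 1 gene called at 2 weeks (5.68 ± 0.73, limma adjusted p = 0.0304) and at 4 weeks (4.59 ± 0.68, limma adjusted p = 0.0481). On regular diet 9 of 10 were called, among them Oas1a (4.02 ± 0.56, well above background in 1 of 3 untreated arrays), Usp18 (3.34 ± 0.51) and Ifit1 (2.73 ± 0.44). With arrays 1 and 2 left out 7 of 10 were called, and these 3 were 3.39 ± 0.45, 3.40 ± 0.58 and 2.85 ± 0.48. Without untreated array 3, Cxcl10 alone was called on regular diet, as by the methods' test. The Cxcl10 calls held in 5 of 10 fits that left out 1 array at 2 weeks and in 1 of 10 at 4 weeks. Their summed signal was 2.89 to 4.3 in untreated arrays, 8.42 to 30.6 at 2 weeks, 11.2 to 23.3 at 4 weeks and 11.9 to 29.8 on regular diet. Regular diet arrays 1 and 2, with 21.4 and 29.8, did not stand apart from arrays 4 and 6 here (23.2 and 21.0), unlike in Axl. Axl correlated with this sum at 0.74 over 16 arrays and 0.85 over 14. The direction of these 10 genes rests on the columns followed. With the scanner files under their recorded samples, all 10 were lower than untreated at 4 weeks (median -1.1). The medians were then 0.88 at 2 weeks and -0.18 on regular diet.

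Of the other receptors and bridging proteins for phosphatidylserine, 12 of 15 were tested and 0 were called at 2 and 4 weeks by limma. On regular diet 1 was called, Cd300lf, an inhibitory receptor of myeloid cells, at 6.12 ± 1.15 (limma adjusted p = 0.022), with values of -0.74 to 3.25 in untreated arrays, of which 1 was well above background, and 5.60 to 8.2 on regular diet. It was not called without arrays 1 and 2 (5.54 ± 1.27, limma adjusted p = 0.0852), nor without regular diet array 1, untreated array 2 or untreated array 3 alone. The median of the list was 0.10, 0.12 and 0.51 at 2 weeks, 4 weeks and on regular diet, and the last was 0.11 without arrays 1 and 2.

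Of the TAM signalling and feedback genes 14 of 14 were tested and 0 were called in any comparison. The largest difference in the list at 2 weeks was that of Socs3, a suppressor of cytokine signalling (2.10 ± 0.50, limma adjusted p = 0.131). Vav1, a guanine nucleotide exchange factor of blood cells, had the largest at 4 weeks (1.49 ± 0.40, limma adjusted p = 0.183). It also had the largest on regular diet (2.39 ± 0.70, limma adjusted p = 0.179). Without arrays 1 and 2 Socs3 was the largest on regular diet (1.51 ± 0.42), with Vav1 at 1.42 ± 0.35. Ifnar1, the interferon receptor chain with which Axl is known to associate, differed by -0.10 ± 0.20, 0.06 ± 0.19 and 0.28 ± 0.19, and it was named after its values were seen. Of the 3 shedding proteins 2 were tested, and Rhbdf2, a partner of the protease that releases receptor ectodomains, differed by 1.04 ± 0.35, 1.18 ± 0.33 and 1.74 ± 0.54 (limma adjusted p = 0.306, 0.192 and 0.216), the last being 0.99 ± 0.28 without arrays 1 and 2.

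None of 13 engulfment genes was called in limma, and the largest differences were those of Rhog at 2 weeks (-1.94 ± 0.53) and Rac2 at 4 weeks (1.96 ± 0.41, limma adjusted p = 0.0964). On regular diet Rac2 differed by 2.54 ± 0.73 (limma adjusted p = 0.169), and by 1.51 ± 0.35 without arrays 1 and 2. Dock2, an exchange factor of leukocytes, was not well above background in untreated arrays and was at least 4.66-fold higher on regular diet (limma adjusted p = 0.179), or at least 2.31-fold without arrays 1 and 2. Of the phosphatidylserine scramblases and flippases 8 of 10 were tested and 0 were called, with the largest differences against untreated in the flippases Atp8a1 at 2 weeks (-0.91 ± 0.19, limma adjusted p = 0.0959) and Atp11a at 4 weeks (-0.95 ± 0.25). The 5 genes of the vitamin K cycle and ligand maturation, which give Gas6 and protein S their calcium-binding form, all stayed within -0.37 and 0.38 in the 3 comparisons against untreated, and 0 were called. The largest was Ggcx, the carboxylase, on regular diet (0.38 ± 0.22, limma adjusted p = 0.549). Without regular diet arrays 1 and 2 Ggcx was at 0.24 ± 0.24, and Vkorc1l1 had the largest difference on regular diet (-0.39 ± 0.18).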

How the data were processed

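Total RNA of the corpus callosum was hybridised to 16 Agilent 4x44K arrays. The authors deposited spot intensity from Agilent Feature Extraction (version 11.0.1.1 per the file headers) and, from GeneSpring, log2 signals per probe relative to each array's 75th percentile. Per probe, the table has a median of 0 over the untreated columns (100% of 41153 probes, tolerance 0.0001), a baseline found from the values. Each column was matched to 1 array (r = 1.0, next best at most 0.881), and for 14 of 16 samples, 13 across groups, this was not the array of the recorded file. The processed table gave all values, and the intensity files gave detection flags, slides and accessions. Gene names (66.7% of probes) came from RefSeq, GRCm38.p6.

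Probes that Feature Extraction marked as well above background throughout 1 group or more were fitted with limma 3.58.1 (R 4.3.3). The 3 untreated and CPZ groups, 10 arrays and 27499 probes, were 1 fit, and all 16 arrays and 27779 probes gave the regular diet comparisons. The threshold was 0.05 for p adjusted over all probes by Benjamini-Hochberg, with a minimum change of 2-fold. The scripts were tested on simulated data. Genes named from lists were those called or with the largest change in each comparison against untreated, besides those said to be chosen otherwise and some not reported here. Replicate numbers did not pair the arrays: r ran from -0.804 to 0.34 over 19 same-numbered pairs, 5 of them over 0.1. The members and lists were chosen with earlier results of these data known. The number of arrays limits the precision. Alternatives are given with their effects in the closing part.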

Additional observations from a re-analysis of the deposited data

How the results depend on the processing

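Of 77 counts of called members under alternatives other than leaving out 1 array, 71 were unchanged and 6 moved from 0. Array weights called 3 at 2 weeks (Axl, Pros1, Tyro3), 2 at 4 weeks (Axl, Pros1) and 2 on regular diet (Axl, Pros1), but the weights did not fully converge and raised the calls over all genes to 1372, 1464 and 840. At 4 weeks the slide as a fixed block called 2 (Axl, Pros1) and as a random block 1 (Axl), among 394 and 325 genes in all. On regular diet the fixed block called 1 (Axl) once arrays 1 and 2 were left out. Leaving out each array in turn gave 0 to 0 members called in every comparison. It also gave 0 to 0 differences between members past the threshold, which says nothing on stability since few of these exact tests could pass it. The block of replicate numbers, which did not pair the arrays, called 0 members in each comparison, and with it the calls over all genes went from 43 to 0, 37 to 0, 3 to 0, 178 to 19 and 1 to 0.

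With each scanner file under its recorded sample, which rests on other arrays, signs turned for Mertk (-0.17), Tyro3 (0.46), Gas6 (0.40) and Pros1 (-0.01) at 2 weeks, for Tyro3 (0.29) and Pros1 (-0.34) at 4 weeks, for Pros1 on regular diet (-0.08) and for Tyro3 between regular diet and 4 weeks (-0.31). Between 4 and 2 weeks all turned: Axl -0.16, Mertk 0.36, Tyro3 -0.17, Gas6 -0.08 and Pros1 -0.33. Of the pairs, Axl minus Mertk turned at 2 weeks (0.68), Mertk minus Tyro3 at 2 and 4 weeks (-0.63, -0.10) and Gas6 minus Pros1 in the 3 comparisons (0.41, 0.66, 0.56). At 2 and 4 weeks Axl minus Tyro3 did not turn but shrank, since Tyro3 was then higher by nearly as much as Axl. Gas6 at 2 weeks was 0.11 with normexp and 0.11 with quantile normalization, and Pros1 between 4 and 2 weeks was -0.24 with array weights.

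Regular diet against 4 weeks turned without regular diet arrays 1 and 2 for Axl (-0.03), Mertk (-0.21), Gas6 (-0.33) and Pros1 (-0.21), and with a fixed slide block as well it was -0.16, -0.15, -0.43 and -0.41. It turned with array weights for Mertk (-0.07) and Gas6 (-0.08), with the replicate block for Tyro3 (-0.22), and with median scaling for Tyro3 (-0.27) and Gas6 (-0.10). That scaling moved the median of all genes from 0.033 to -0.267 here, from -0.021 to 0.261 between 4 and 2 weeks, from 0.050 to -0.115 at 2 weeks, from -0.041 to 0.075 at 4 weeks and from -0.007 to -0.189 on regular diet. Leaving out 1 array turned Gas6 at 2 weeks (range -0.25 to 0.10), Tyro3 and Pros1 between 4 and 2 weeks (-0.05 to 0.54, -0.36 to 0.50), Tyro3 and Gas6 between regular diet and 4 weeks (-0.22 to 0.21, -0.03 to 0.36) and Axl minus Mertk at 2 weeks (-0.41 to 0.10). The differences of Axl, Mertk, Tyro3 and Pros1 from untreated kept their sign in every alternative but the recorded files. Leaving out arrays 1 and 2, alone or with the slide block, and normexp on the median signal were chosen after seeing the data. Why these results moved was not tested.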
